A study of Mus musculus with 10 samples.

Results

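Dependence receptors are membrane receptors that signal when their ligand is bound and that can trigger cell death when the ligand is missing. The best known are the netrin receptors, and receptors of several unrelated families share the property. The 9 genes described here, Ret, Ngfr, Ntrk3, Met, Alk, Insr, Ptch1, Notch3 and Kremen1, code for receptors listed as dependence receptors outside the netrin family. They were taken by name, and all 9 were found among the 18901 genes of the table. All 9 also passed the filter on low values that left 17075 genes for testing, a pseudo-count of at least 10 in at least 2 libraries, and each of them would also pass it on the iPS libraries alone.

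RNA was sequenced from 10 libraries of 5 mouse lines. MEF, embryonic fibroblasts that carry an Oct4-GFP reporter and come from a cross of the mf1 and 129 strains, were taken at passages 2 and 4. The other 4 lines were made from Oct4-GFP MEF with retroviruses for Oct4, Sox2, Klf4 and c-Myc and taken at passages 5 and 25. Of these, the pre-iPS line was partly reprogrammed, with a silent Oct4-GFP reporter and active viral factors, the control iPS line served as the reference, and clones 1 and 2 were rNetrin-1-derived iPS lines, labelled as made with netrin-1. The pre-iPS and iPS lines were grown in serum-replacement medium with LIF, on gelatin or on irradiated MEF feeders, and MEF in serum medium. The paper lists the serum-replacement medium both with and without added 2i components, and does not say which the sequenced lines had. Each of the 4 reprogrammed lines was 1 clone, so its 2 libraries were repeated samples of that clone and p-values measure the spread between passages, not between independent clones. Values are pseudo-counts, read counts that the authors rescaled to 1 common library size, and 1 pseudo-count stood for about 1 read, since the worth of 1 read lay between 0.888 and 1.18 pseudo-counts over the libraries. The libraries held 38110410 to 52946856 reads on genes.

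The summed pseudo-count of 8 fibroblast markers was 2225500 to 2349900 in MEF, 18918 to 31122 in the iPS libraries and 19169 to 19930 in pre-iPS. The summed value of 5 pluripotency markers was 131 to 137 in MEF, 12361 to 12769 in pre-iPS and 20305 to 46302 in iPS. In pre-iPS that sum was mostly Zfp42, at 6101 and 6512, and Tdgf1, at 5499 and 6299, while the others lay far below iPS. Nanog had 311 and 350 in pre-iPS against 2489 to 7441 in iPS, Esrrb 15.4 and 31.6 against 900 to 7388, and Dppa3 4.80 and 8.16 against 436 to 1646. A set of 6 macrophage markers summed to 11820 to 11831 in MEF and to 433 to 1659 elsewhere, and 5 Schwann cell or neural crest markers summed to 136 to 144 in MEF and to 2041 to 3815 elsewhere. Outside MEF most of the macrophage sum was Cd68, at 354 to 1565, and Cd68 had 715 and 767 in MEF. Most of the Schwann cell or neural crest sum outside MEF was Erbb3, at 1696 to 3552. In cultures of this kind, fewer cells that express a gene and less RNA per cell cannot be told apart.

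In textbook terms the 9 receptors fall into 4 groups. Ret, Ntrk3, Met, Alk and Insr are receptor tyrosine kinases, for the GDNF family ligands, neurotrophin-3, hepatocyte growth factor, the Alkal cytokines and insulin. Ngfr is the death-domain receptor shared by all neurotrophins. Ptch1 binds Hedgehog proteins and restrains Smo until they bind, and it is itself a target of the pathway. Notch3 is cleaved on contact with Jagged or Delta ligands, and Kremen1 binds Dickkopf proteins and removes the Wnt co-receptors Lrp5 and Lrp6 from the surface.

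The promoters of Ptch1 and Ngfr are shown because these genes were low in MEF and high in all 4 reprogrammed lines, and because they differ in the density of CG dinucleotides, printed in capitals. The RefSeq table (GRCm38.p6) held promoters for 5 of the 9 genes, Ptch1, Ngfr, Alk, Met and Notch3, and the 250 bases before each start are used here. Both run 5′ to 3′ on the minus strand, Ptch1 at chr13:63565736-63565985 and Ngfr at chr11:95587699-95587948.
Ptch1: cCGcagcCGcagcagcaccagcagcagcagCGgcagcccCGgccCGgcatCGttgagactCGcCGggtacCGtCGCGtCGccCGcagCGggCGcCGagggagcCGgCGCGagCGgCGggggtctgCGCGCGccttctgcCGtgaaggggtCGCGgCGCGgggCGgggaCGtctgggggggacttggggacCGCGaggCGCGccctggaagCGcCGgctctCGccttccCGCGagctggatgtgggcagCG
Ngfr: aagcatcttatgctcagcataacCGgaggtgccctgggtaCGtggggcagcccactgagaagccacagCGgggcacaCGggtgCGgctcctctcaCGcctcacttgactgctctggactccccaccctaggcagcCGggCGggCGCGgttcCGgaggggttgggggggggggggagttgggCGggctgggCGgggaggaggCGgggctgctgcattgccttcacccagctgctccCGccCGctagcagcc
The Ptch1 window held 41 CG dinucleotides, and 98.9% of the 27025 promoters of the table held fewer. The Ngfr window held 16, and 74.4% held fewer. The median promoter held 6. The GC box GGGCGG, searched on both strands, occurred 1 time in Ptch1 and 4 times in Ngfr, and 32.9% of all promoters held it. The Gli motif GACCACCCA, found on either strand in 0.211% of promoters, was in neither window. The Ptch1 window lies inside the annotated gene, chr13:63508328-63573598, so it precedes an internal start. The rest of the gene and the bases before its upstream end were not searched for the motif.

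Levels can be set side by side between genes only per length of exon. Per kb of exon (the union of the GENCODE M21 exons), Notch3 was the highest of the 9 in iPS at a pseudo-count of 718 ± 55.5 per kb (SD, n = 6), followed by Kremen1 at 379 ± 47.0. Ngfr, Met and Insr came next at 198 ± 118, 185 ± 30.6 and 184 ± 13.3 per kb, and these 3 did not differ beyond their spread. Ptch1 followed at 107 ± 13.5 per kb and Ret at 31.6 ± 16.5. Alk at 1.60 ± 0.838 and Ntrk3 at 0.751 ± 0.360 per kb were the lowest. The exon union was 30170 bases for Ntrk3, with 6 coding transcripts, and 7755 for Alk, with 1. Before division by length, the iPS mean of Ntrk3, 22.7, lay above that of Alk, 12.4, so their order depends on the length used. In MEF the order was Kremen1 at 556 ± 15.9 per kb (SD, n = 2), Notch3 at 458 ± 25.6, Insr at 258 ± 6.22, Met at 196 ± 1.79, Ptch1 at 32.6 ± 1.68, Ngfr at 25.8 ± 2.64, Ntrk3 at 7.03 ± 0.716, Ret at 5.13 ± 0.616 and Alk at 2.23 ± 0.117. Kremen1, Notch3, Insr and Met were thus the 4 most abundant of the receptor mRNAs in MEF, and the same 4 led in pre-iPS, at 458 ± 73.1 for Notch3, 394 ± 47.9 for Kremen1, 259 ± 3.66 for Insr and 211 ± 30.0 for Met (SD, n = 2), where the ranges of Notch3 and Kremen1 overlapped. Ngfr followed at 187 ± 49.0 per kb, and its range overlapped that of Met, so the fourth place was not separated.

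**Figure D1:**
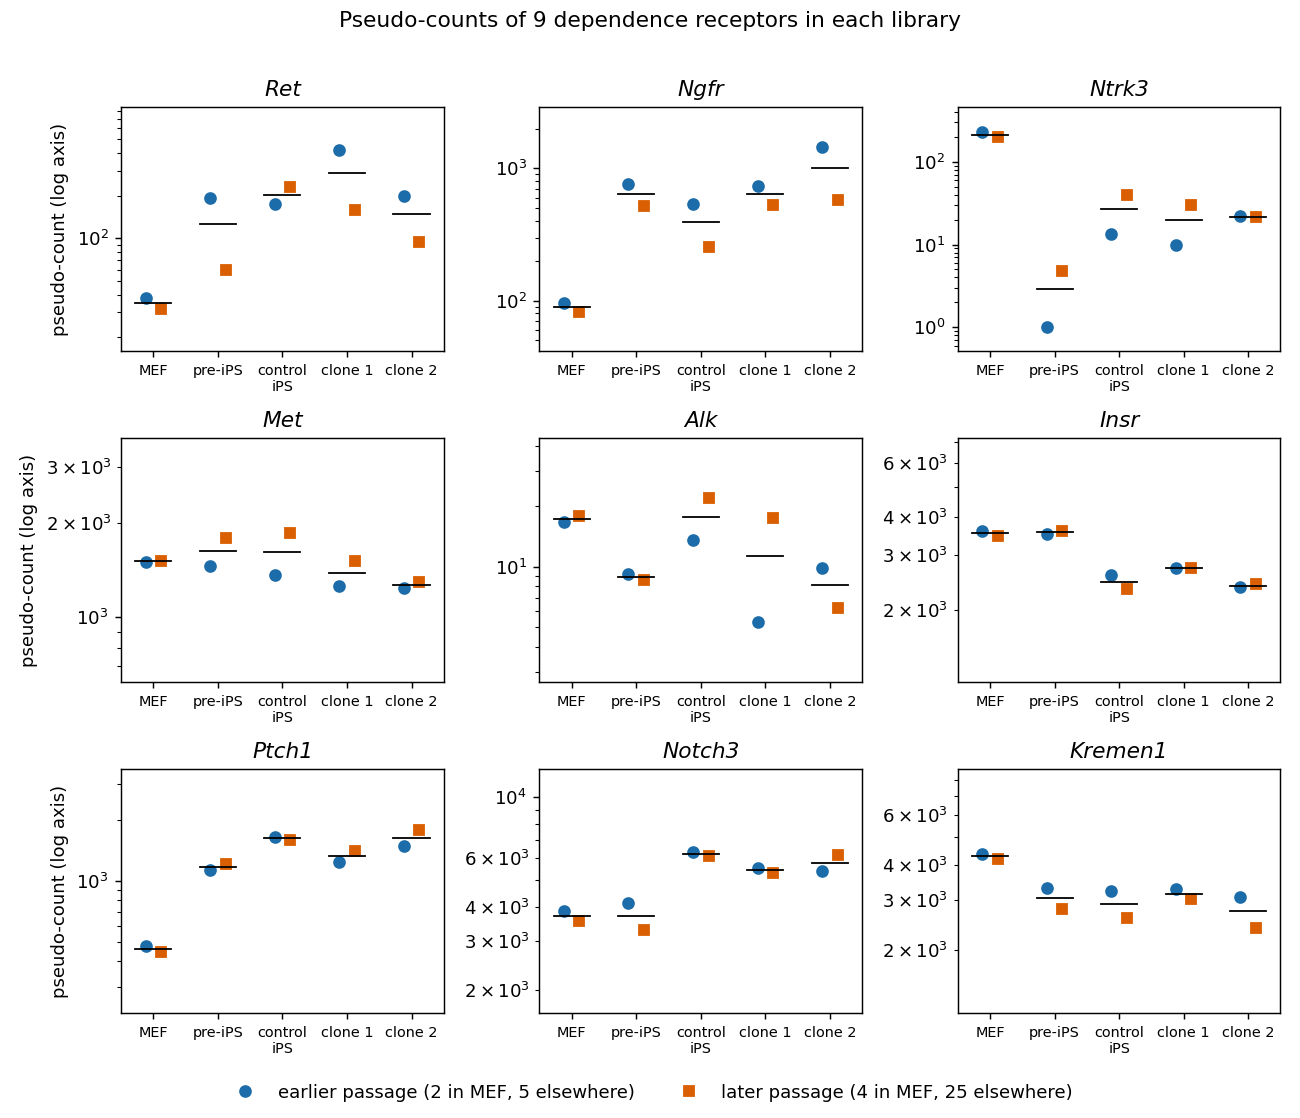
Pseudo-count of each receptor (log axis, 1 panel per gene) in the 10 libraries of the 5 lines, with circles for the earlier passage, squares for the later one and a bar at the mean of the 2 libraries. Ret, Ngfr and Ptch1 lie lowest in MEF, Ntrk3 lies highest there, and on this scaling the pre-iPS libraries lie near the MEF level for Insr and Notch3.

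MEF and the 3 iPS lines were compared to see which receptors differ between the starting cells and the reprogrammed cells. Ret, Ngfr and Ptch1 were lower in MEF, and Ntrk3 was higher. A gene was called when limma gave an adjusted p under 0.05 (Benjamini-Hochberg over all genes tested) and an absolute log2 difference of at least 1. By that rule 4 of 9 receptors were called, beside 48.2% of all genes tested, so the share of the receptors was near that of all genes. With the adjusted p alone 7 of 9 passed, beside 79.3% of all genes. MEF and iPS libraries did not overlap for the same number, 7 of 9, beside 80.0% of all genes. The median log2 difference of the 9 was 0.098, beside -0.087 over all genes.

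Ret (chr6:118151745-118197718, minus strand, GRCm38), the kinase that signals for the GDNF family, had pseudo-counts of 37.6 and 31.7 in MEF at passages 2 and 4. In iPS it had 176 and 232 in the control line at passages 5 and 25, 422 and 159 in clone 1, and 200 and 94.98 in clone 2. All 6 iPS libraries lay above both MEF libraries, although the iPS values spread over more than the gap. The log2 difference of MEF from iPS was -2.45 ± 0.513 (SE; adjusted p = 0.00197). Of its partners, the ligand Artn was higher in MEF by 2.92 ± 0.196 on the log2 scale and Nrtn lower, at -3.33 ± 0.312, while Gdnf itself differed by 0.19 ± 0.302 (adjusted p = 0.569). The co-receptors that bind these ligands moved both ways: Gfra1 by 3.10 ± 0.311 and Gfra4 by 1.66 ± 0.299 were higher in MEF, and Gfra2 by -1.34 ± 0.215 and Gfra3 by -3.15 ± 0.688 lower. Gfra3 had only 2 and 6 reads in MEF, and after quantile normalization it came to -1.6 (adjusted p = 0.055) and was not called. MEF therefore held more mRNA of Gfra1, the main co-receptor for Gdnf, with a mean pseudo-count of 1827 against 221 in iPS, and less of Ret.

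Ngfr (chr11:95568818-95587735, minus strand) had 95.4 and 82.5 in MEF, 537 and 256 in the control iPS line, 738 and 532 in clone 1 and 1449 and 576 in clone 2. All 6 iPS libraries lay above MEF, and the passage 5 library of clone 2 stood highest. The log2 difference of MEF from iPS was -2.73 ± 0.381 (adjusted p = 0.000158). Ntrk3 (chr7:78175959-78738012, minus strand), the kinase receptor for neurotrophin-3, went the other way, with 227 and 197 in MEF and 9.76 to 39.6 over the 6 iPS libraries, whose median was 21.7. That is 186 to 193 reads in MEF and 11 to 38 reads in iPS, and the groups did not overlap. The log2 difference was 3.30 ± 0.563 (adjusted p = 0.000565).

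The neurotrophin ligands Bdnf and Ntf3 were also higher in MEF, by 2.82 ± 0.128 and 4.52 ± 0.396 on the log2 scale, and Ntf5 was lower, at -1.004 ± 0.339 (adjusted p = 0.0226), just past the fold threshold and not called in 8 of the alternatives. Ntrk3 and its ligand Ntf3 were thus both higher in MEF, with Ntf3 at 114 and 119 in MEF and 0.991 to 8.70 in iPS. Ntrk2, the kinase receptor for Bdnf, was lower in MEF, at -2.86 ± 0.209. The death-domain relative Nradd was higher by 1.39 ± 0.0845, as was Lingo1, which forms a complex with Ngfr, by 1.14 ± 0.275. Maged1, an adaptor that binds Ngfr in the cell death pathway, was higher by 1.98 ± 0.0962. With the libraries scaled to total reads, Nradd and Lingo1 fell under the fold threshold and lost their calls, at 0.934 and 0.688. The summed Schwann cell or neural crest markers given above moved in the same direction as Ngfr and Ret between MEF and iPS, and their part in these results was not tested.

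Ptch1 (chr13:63508328-63573598, minus strand), the Hedgehog receptor, had 479 and 446 in MEF and 1235 to 1776 over the 6 iPS libraries, with a median of 1530. The groups were far apart and the spread within each was small. The log2 difference was -1.71 ± 0.0968 (adjusted p = 5.53e-07). Gli1, the transcription factor that like Ptch1 is a direct target of the pathway, was lower in MEF, at -4.97 ± 0.203. Gli1 had 32.8 and 25.4 in MEF and 720 to 1308 in iPS. The ligand Dhh was lower, at -2.49 ± 0.272. In contrast, the proteins that receive or pass on the ligand at the membrane were higher in MEF, Smo by 1.68 ± 0.116, Boc by 3.69 ± 0.105, Cdon by 2.77 ± 0.0935 and Gas1 by 4.68 ± 0.215. Hhip, another pathway target, named after its values were seen, did not follow Ptch1 and Gli1. It had 283 and 294 in MEF and 69.4 to 1300 in iPS, and the groups overlapped, with a log2 difference of 0.27 ± 0.371 (adjusted p = 0.52). Fhl2, an adaptor that joins Ptch1 in its cell death complex, was higher by 2.47 ± 0.212.

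Notch3 (chr17:32120820-32166852, minus strand) had 3853 and 3561 in MEF and 5325 to 6342 over the iPS libraries, with a median of 5810. The libraries did not overlap, and the log2 difference of -0.65 ± 0.0948 (adjusted p = 0.00022) was under the fold threshold. Scaled to total reads, the median of all genes moved from -0.087 to -0.534, and Notch3 came to -1.1 and was called, so relative to that median the difference was much the same. In the annotation 488 of its 8089 exon bases lie opposite an antisense gene, Gm17276, and the library kit does not mark strand. Notch1 by 0.75 ± 0.0980 and Notch2 by 0.69 ± 0.0712 were higher in MEF under the fold threshold, and Notch4 was lower, at -3.80 ± 0.298. Of the ligands, Jag1 was higher by 1.82 ± 0.113, and Jag2, Dll1 and Dll4 were lower, at -5.44 ± 0.122, -2.65 ± 0.311 and -3.25 ± 0.262. Nrarp, a Notch target that feeds back on the pathway, was lower, at -3.67 ± 0.144. In the annotation 2051 of the 2582 exon bases of Nrarp lie opposite the antisense gene Gm38287. Several other partners named in this text also share exon bases with other genes. Other Notch targets were named after their values were seen. Hes5 went with Nrarp, with 0 to 1 reads in MEF and 10 to 18 reads in iPS, and the following went the other way. Hey1 by 1.86 ± 0.277, Hey2 by 3.09 ± 0.349 and Heyl by 2.10 ± 0.370 were higher in MEF and called, and Hes1 was higher by 0.63 ± 0.156 (adjusted p = 0.00493) under the fold threshold and by 0.18 when scaled to total reads.

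Insr (chr8:3122061-3279617, minus strand), the insulin receptor, had 3601 and 3480 in MEF and 2328 to 2731 in iPS, with a median of 2510, so that both MEF libraries lay above all iPS libraries. The log2 difference was 0.49 ± 0.0627 (adjusted p = 9.26e-05), under the fold threshold. The related ligands Igf1 and Igf2 were higher in MEF by 5.57 ± 0.146 and 6.18 ± 0.540, Igf1r by 1.87 ± 0.0792, and the substrate Irs1 by 3.45 ± 0.187. In the annotation Igf2 shares 3694 of its 5723 exon bases with other genes, and Irs1 2822 of its 9144. Kremen1 (chr11:5191552-5261558, minus strand) had 4377 and 4203 in MEF and 2381 to 3268 in iPS, with a median of 3049, and a log2 difference of 0.56 ± 0.124 (adjusted p = 0.00271). Scaled to total reads, with the shift of the median given above, Insr differed by 0.0349 (adjusted p = 0.605) and Kremen1 by 0.106 (adjusted p = 0.386). Its ligand Dkk2 was higher in MEF by 8.32 ± 0.449, from a mean of 14.0 in iPS to 4320 in MEF, and the Wnt co-receptor Lrp6 by 0.94 ± 0.0877, under the fold threshold.

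Met (chr6:17463800-17573980, plus strand) differed least of the 9 on the deposited scaling, with 1497 and 1517 in MEF and 1244 to 1859 in iPS, where the median was 1331. The MEF values lay inside the iPS range, and the log2 difference was 0.10 ± 0.134 (95% interval -0.208 to 0.403; adjusted p = 0.518). Its sign depended on the scaling, with -0.0669 after quantile normalization and -0.356 when Met was scaled to total reads (adjusted p = 0.0516), where Insr at 0.0349 and Kremen1 at 0.106 were closer to 0. Hgf, its ligand, was higher in MEF by 3.89 ± 0.190. Alk (chr17:71868972-72604627, minus strand) was close to the detection limit in every line, with 6 to 21 reads per library. It had 16.6 and 17.9 in MEF and 5.32 to 21.9 in iPS, and the log2 difference of 0.60 ± 0.428 was not called (adjusted p = 0.224). After quantile normalization Alk came to 1.98 (adjusted p = 0.0081) and was called. Its ligand Fam150a, also named Alkal1, was higher in MEF by 4.15 ± 0.661, and its relative Ltk lower, at -4.70 ± 0.417.

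Of the 78 listed partners that were tested, 55 were called between MEF and iPS, 35 higher and 20 lower in MEF, beside 21.6% of all genes higher and 26.6% lower. Scaled to total reads, the split over all genes moved from 3690 higher and 4547 lower to 2540 and 6126. By role, 10 of 21 ligands were higher and 7 lower, 8 of 13 co-receptors were higher and 2 lower, 2 of 12 related receptors were higher and 6 lower, and 8 of 20 targets and signal carriers were higher and 4 lower. Among 6 death partners 2 were higher and none was lower. The median log2 difference was 0.194 for the ligands, 1.14 for the co-receptors, -0.896 for the related receptors, 0.616 for the targets and signal carriers and 0.135 for the death partners. All 6 further dependence receptors outside the netrin family were called. Kit, the stem cell factor receptor, was lower in MEF, at -8.39 ± 0.154, and Itgav and Itgb3, both chains of an integrin, were higher by 2.08 ± 0.112 and 1.36 ± 0.198, with Epha4 and Plxnd1 higher as well. Scaled to total reads, Itgb3 came to 0.909 and was not called.

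**Figure D2:**
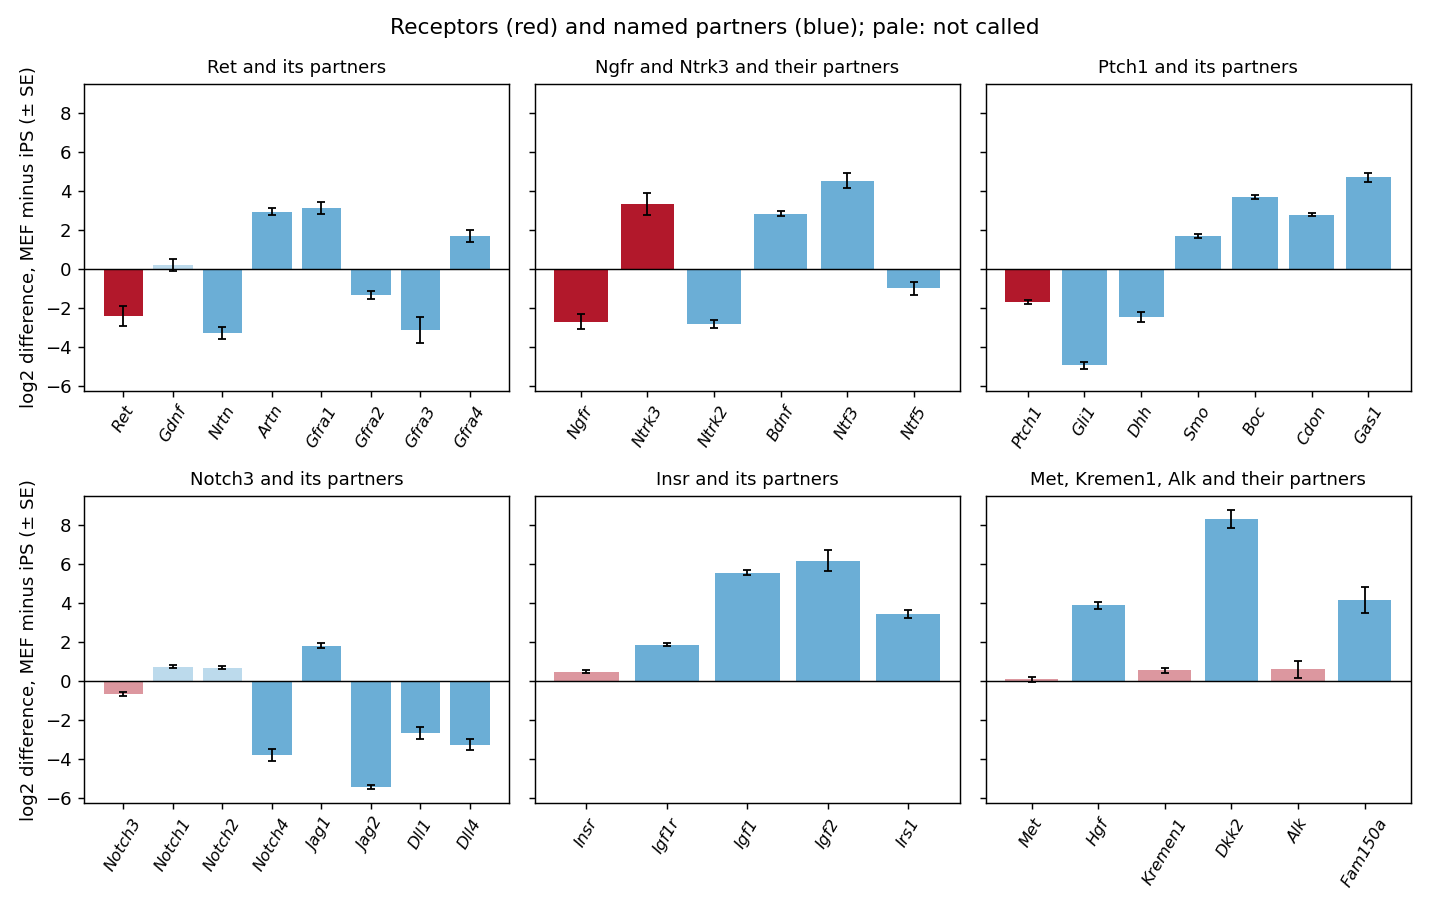
Log2 difference of MEF from the 3 iPS lines, with SE, for receptors (red) and partners (blue), 1 panel per receptor or group, and pale bars for genes not called. Ptch1 and Gli1 lie below 0 while Smo, Boc, Cdon and Gas1 lie above it, and Hgf, Dkk2, Igf1 and Igf2 lie far above Met, Kremen1 and Insr.

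The pre-iPS line was set against the iPS lines to see which receptors separate a partly reprogrammed line from fully reprogrammed ones. Only Ntrk3 was called among the 9, as lower, beside 16.3% of all genes. It had 1.02 and 4.80 in pre-iPS, that is 1 and 5 reads, against 9.76 to 39.6 in iPS. Both pre-iPS libraries lay below every iPS library, and the log2 difference was -2.65 ± 0.563 (adjusted p = 0.00636). Over pooled reads, 6 in pre-iPS against 138 in iPS, the level in pre-iPS was 13.4% of that in iPS (95% interval 4.82% to 29.9%, exact, counting error only). Without the passage 5 library of pre-iPS, Ntrk3 differed by -1.89 (adjusted p = 0.0772) and was not called. The summed fibroblast markers of pre-iPS lay within the range of the iPS libraries, as given above.

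With the adjusted p alone 4 of 9 receptors passed in pre-iPS against iPS, beside 39.6% of all genes, and the libraries of 4 of 9 did not overlap, beside 41.8%. Notch3 had 4125 and 3289 in pre-iPS, below all iPS libraries, with a log2 difference of -0.65 ± 0.0948 (adjusted p = 0.000995). Insr had 3526 and 3597, above all iPS libraries, with 0.50 ± 0.0627 (adjusted p = 0.000486). Ptch1 had 1127 and 1215, just below the lowest iPS library, with -0.37 ± 0.0968 (adjusted p = 0.0169). The rest overlapped with iPS. Ret had 194 and 59.5 in pre-iPS and differed by -0.84 ± 0.513 (adjusted p = 0.226), Ngfr had 762 and 523 and differed by 0.083 ± 0.381 (95% interval -0.789 to 0.954), Kremen1 had 3300 and 2777 and differed by 0.057 ± 0.124, Met had 1460 and 1786 and differed by 0.20 ± 0.134, and Alk had 9.18 and 8.64 and differed by -0.28 ± 0.428.

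**Figure D3:**
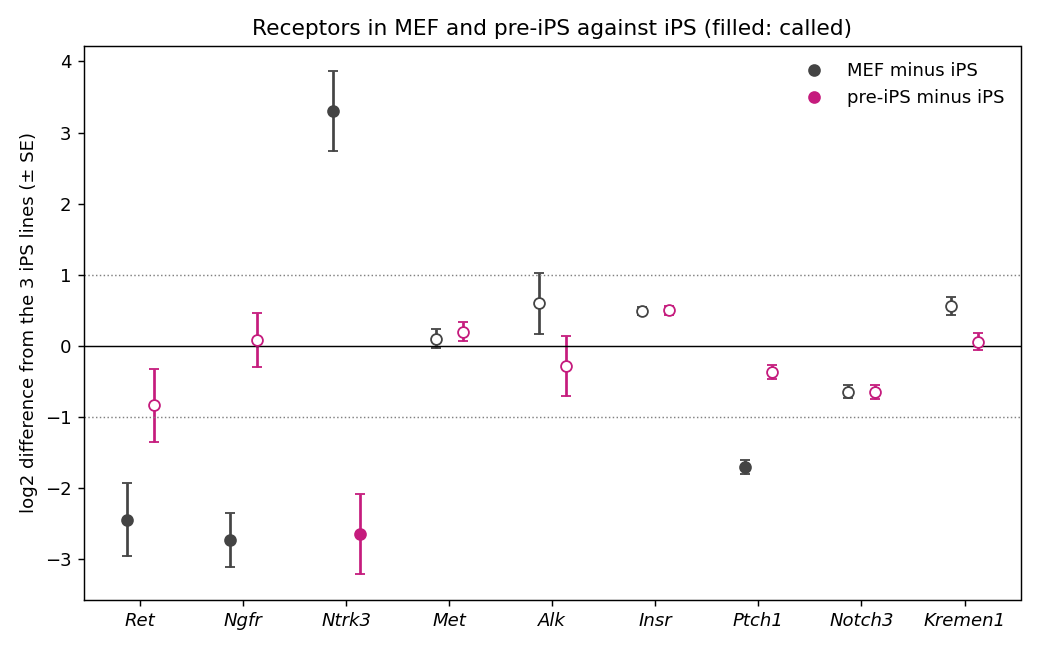
Log2 difference of MEF (grey) and of pre-iPS (pink) from the 3 iPS lines for each receptor, with SE, filled where called and with dotted lines at the fold threshold of 1. For Insr and Notch3 both points coincide away from 0, and for Ntrk3 they lie on opposite sides of it.

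Against MEF, pre-iPS had 4 of 9 receptors called, beside 43.2% of all genes. Ptch1 by 1.34 ± 0.118 (adjusted p = 1.27e-05), Ngfr by 2.82 ± 0.467 (adjusted p = 0.000611) and Ret by 1.61 ± 0.629 (adjusted p = 0.0459) were higher in pre-iPS, and Ntrk3 was lower, at -5.96 ± 0.689 (adjusted p = 6.66e-05). These comparisons share the MEF or pre-iPS libraries with those above. The call for Ret was lost in 8 alternatives, and without the passage 5 library of pre-iPS the difference of Ret was 0.767 (adjusted p = 0.313). Kremen1 was lower, at -0.50 ± 0.152 (adjusted p = 0.0158), under the fold threshold, and scaled to total reads Kremen1 came to -0.0704 (adjusted p = 0.648). Notch3 and Insr did not differ detectably between pre-iPS and MEF, with -0.0083 ± 0.116 (95% interval -0.274 to 0.257) and 0.0087 ± 0.0769 (95% interval -0.167 to 0.184). Their pre-iPS level relative to MEF depended on scaling, and with total reads Notch3 was higher in pre-iPS by 0.423 (adjusted p = 0.00838) and Insr by 0.441 (adjusted p = 0.000569), while the median of all genes moved from 0.0582 to 0.482. Both genes lay close to that median under both scalings. After quantile normalization Insr was higher in pre-iPS by 0.209 (adjusted p = 0.0403).

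Of the 78 partners, 19 were called between pre-iPS and iPS, 1 higher and 18 lower in pre-iPS, beside 4.71% and 11.6% of all genes. After quantile normalization the split over all genes moved from 804 higher and 1977 lower to 1483 and 1426. By role, 4 of 21 ligands, 3 of 13 co-receptors, 3 of 12 related receptors, 6 of 20 targets and signal carriers and 2 of 6 further dependence receptors were lower, and none of the 6 death partners was called. For Ret, the co-receptors Gfra1 by -1.61 ± 0.311, Gfra3 by -2.41 ± 0.688 and Gfra4 by -1.11 ± 0.299 and the ligand Nrtn by -1.13 ± 0.312 were lower in pre-iPS, and Gfra2 was higher by 1.02 ± 0.215. The mean of Gfra2 in pre-iPS, 936, lay near those of clone 1 at 941 and clone 2 at 922. Only the control line, at 115, lay far lower, so this call does not separate pre-iPS from the clones. Without the passage 25 library of pre-iPS, Gfra2, Gfra3, Gfra4 and Nrtn lost their calls, with adjusted p from 0.0673 to 0.226. Among the signal carriers, Gab1, the docking protein of Met, fell by 2.35 ± 0.165 and Gli2, a Hedgehog transcription factor, by 1.98 ± 0.181. The Notch target Hey2 fell by 1.70 ± 0.349 and Igf2 by 1.81 ± 0.540. Without 1 pre-iPS library, Hey2 (adjusted p = 0.0571) and Igf2 (adjusted p = 0.247) each lost the call. The further dependence receptors Kit and Epha4 were lower, at -1.80 ± 0.154 and -1.68 ± 0.147.

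The rNetrin-1-derived clones were compared with the control iPS line to see whether receptors outside the netrin family differ in iPS cells made with netrin-1. None of the 9 was called by limma, beside 2.11% of all genes, and none was called by edgeR or DESeq2 on recovered reads. Only Ngfr, 1 of 9, had an unadjusted p under 0.05, beside 18.0% of all genes. Ngfr had 738 and 1449 in clones 1 and 2 against 537 in the control line at passage 5, and 532 and 576 against 256 at passage 25. Both clones were above the control line at each passage, although the groups overlapped because Ngfr was lower at passage 25 in every line. The log2 difference was 1.03 ± 0.405 (95% interval 0.104 to 1.95; adjusted p = 0.227). With passage as a block, Ngfr differed by 1.03 ± 0.186 (adjusted p = 0.0189) and was called, and calls over all genes rose from 360 to 564. Without the passage 25 library of the control line, Ngfr differed by 0.495 (adjusted p = 0.736), and without its passage 5 library by 1.56 (adjusted p = 0.175). The control is a single line, so its difference from the clones and the derivation with netrin-1 cannot be told apart. The other 8 receptors ranged from -0.896 for Alk to 0.056 for Insr on the log2 scale.

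Against the control line, clone 1 had 0 of 9 called (1.41% of all genes) and clone 2 had 0 of 9 (2.42%), and clone 2 against clone 1 had 0 of 9 (0.966%) by limma. Unadjusted p-values under 0.05 came for Ptch1 in clone 1 against control, Ngfr in clone 2 against control, and Ptch1 and Insr in clone 2 against clone 1, beside 17.2%, 18.7% and 16.6% of all genes. edgeR called none of them, and DESeq2 called Ngfr in clone 2 against control, by 1.35 (adjusted p = 0.0369). By limma, Ngfr was higher than in the control line by 0.76 ± 0.467 in clone 1 (adjusted p = 0.461) and by 1.30 ± 0.467 in clone 2 (adjusted p = 0.179). With passage as a block these came to an adjusted p of 0.0895 for Ngfr in clone 1 and 0.0141 in clone 2, and for clone 2 the calls over all genes rose from 413 to 711.

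Of the 78 partners, 5 were called between the rNetrin-1-derived clones and the control line, beside 2.11% of all genes. Of these, 3 were higher and 2 lower in the clones, beside 0.99% and 1.12% of all genes. Gfra2, a co-receptor of Ret, had 94.9 and 134 in the control line and 702 to 1180 in the clones, with a log2 difference of 3.01 ± 0.229 (adjusted p = 0.000789). Grb10, an adaptor that binds and restrains the insulin receptor, had 3826 and 4671 in the control line and 11500 to 18842 in the clones, a difference of 1.91 ± 0.174 (adjusted p = 0.00173). For both genes the pre-iPS libraries, at 812 and 1059 for Gfra2 and 17431 and 20796 for Grb10, lay near the clones, and the control line stood apart. Hhip, a decoy that binds Hedgehog ligands, had 636 and 1300 in the control line and 69.4 to 294 in the clones, a difference of -2.88 ± 0.394 (adjusted p = 0.00816). Notch4 had 160 and 357 in the control line and 796 to 1285 in the clones, a difference of 1.96 ± 0.316 (adjusted p = 0.0146). Insrr, a relative of Insr, had 22.9 and 30.0 in the control line and 7.16 to 9.76 in the clones, a difference of -1.53 ± 0.343 (adjusted p = 0.0481). Without the passage 25 control library the calls for Hhip (adjusted p = 0.0749), Notch4 (adjusted p = 0.0796) and Insrr (adjusted p = 0.16) were lost, and Insrr lost its call in most alternatives.

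Passage 25 was compared with passage 5 within the 4 reprogrammed lines, with the line as a block, to see whether the receptors change over culture. Each line had 1 library per passage. Passage therefore cannot be told apart from any handling step shared by the libraries of the same passage. None of the 9 was called by limma, edgeR or DESeq2, beside 1.69% of all genes by limma. With the adjusted p alone 2 of 9 passed, Ngfr and Kremen1, beside 10.9% of all genes, and the passages did not overlap for 1 of 9, Kremen1, beside 6.65%. Unadjusted p-values were under 0.05 for 5 receptors, Ret, Ngfr, Ntrk3, Kremen1 and Met, beside 29.1% of all genes. Ngfr was lower at passage 25 in all 4 lines, with log2 differences of -0.541 in pre-iPS, -1.07 in control iPS, -0.472 in clone 1 and -1.33 in clone 2, and its mean difference was -0.85 ± 0.152 (adjusted p = 0.0182). Kremen1 was also lower in all 4 lines, by -0.26 ± 0.0589 (adjusted p = 0.0337), with 3081 to 3300 at passage 5 and 2381 to 3017 at passage 25.

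Ret was lower at passage 25 in pre-iPS, clone 1 and clone 2, by -1.69, -1.40 and -1.07, and higher in control iPS, by 0.394. Its mean difference was -0.94 ± 0.320 (adjusted p = 0.104). Leaving out either control library takes the control line, the only line where Ret rose, out of the estimate. Ret then came to -1.39. Ntrk3 was higher at passage 25 in pre-iPS, control iPS and clone 1, by 1.52, 1.48 and 1.52, and level in clone 2, at -0.020, with a mean of 1.12 ± 0.337 (adjusted p = 0.0758). Leaving out 1 library of clone 2 likewise takes out the only line where Ntrk3 did not rise, and Ntrk3 then came to 1.51. Met was higher at passage 25 in all 4 lines, by 0.27 ± 0.0746 on average (adjusted p = 0.0633). A test of whether the change with passage differed between pre-iPS and the iPS lines called none of the 9. With 1 pre-iPS library per passage, the pre-iPS line added nothing to the estimate of spread in that test. It had little power to find a difference, and no conclusion is drawn from it. Of the 78 partners 2 were called with passage, beside 1.69% of all genes, both ligands and both lower at passage 25. Igf2 differed by -1.31 ± 0.131 (adjusted p = 0.00313), and Shh held only a few reads per library.

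**Figure D4:**
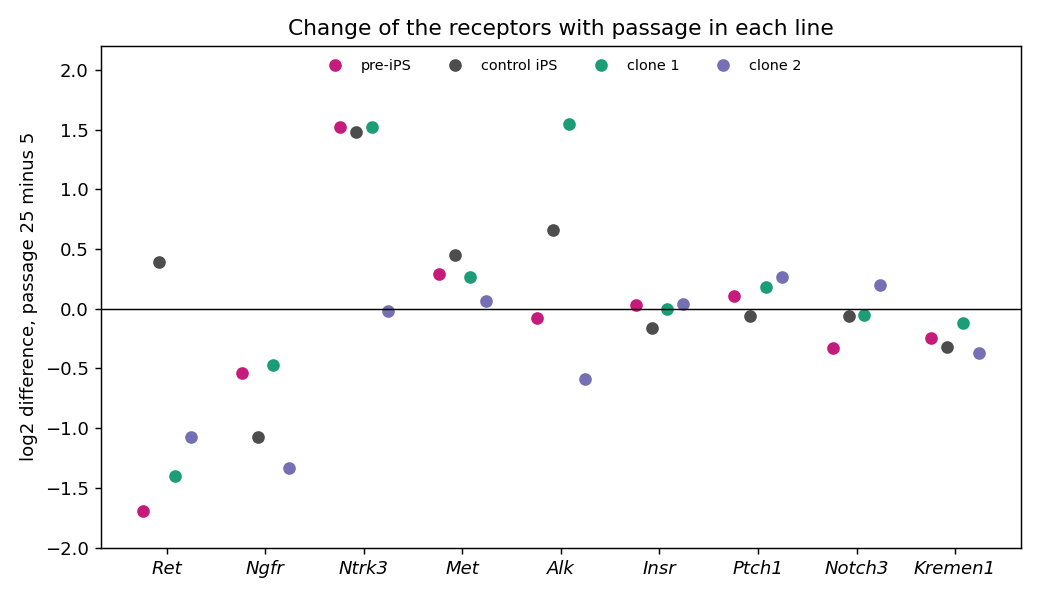
Log2 difference of passage 25 from passage 5 for each receptor in the pre-iPS line and the 3 iPS lines, 1 point per line and no error bar since each point rests on 2 libraries. All 4 points lie below 0 for Ngfr and Kremen1 and above 0 for Met, and control iPS lies apart from the other lines for Ret.

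Over the 10 libraries, the genes with profiles most like those of the receptors were found by Pearson's correlation of the log2 values, which is a description in which MEF against the other lines carries much of the weight. For Ptch1 these were Cep78, Suv420h2 and Slc47a2, with r of 0.997, 0.996 and 0.996. For Ngfr they were Akr1c18, Lgals7 and Tmem235, with r of 0.984, 0.980 and 0.979. For Ntrk3 they were Megf10, Gpr146 and Sncaip, with r of 0.986, 0.984 and 0.984, and for Ret they were Endou, Psma7 and Cd244, with r of 0.972, 0.972 and 0.971. Among the receptors themselves, Notch3 and Insr had the most opposed profiles, with r = -0.929 over the 10 libraries and -0.904 over the 8 libraries without MEF. In those 8 libraries, pre-iPS lay below all iPS libraries for Notch3 and above all of them for Insr. The value of r therefore largely restates that difference between lines. The correlation of Ptch1 with Ngfr was 0.811 over 10 libraries and -0.255 without MEF, and that of Ret with Ngfr was 0.735 and 0.137.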

How the data were processed

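RNA was measured in 10 libraries of 5 lines, made with a poly(A) kit that does not mark strand and sequenced as single reads. Per the labels' processing notes, the authors used FastQC, CASAVA 1.8.2, TopHat2 2.0.8b (mm10), HTSeq 0.5.3p9 and edgeR, and the deposited signal values are edgeR pseudo-counts, which are TMM-scaled to 1 library size. The gene annotation and strand setting are not given in the sources used here. The TMM factors were 0.778 to 0.781 for MEF and 1.04 to 1.10 for the other lines. Whole reads were recovered from the deposited values (99.97% to 100% of values within 0.1 of a whole number). The main test was limma 3.58.1 (R 4.3.3, eBayes with trend) on log2(value + 1), over the 17075 genes whose value reached 10 in 2 or more libraries, with 1 mean per line and Benjamini-Hochberg adjustment. Fold changes on this scale understate the change of low genes. A gene was called when its adjusted p was under 0.05 and its log2 difference was 1 or more in size. Alternatives were pseudocounts of 0.5 and 5, other filters and scalings, a passage block, leaving out each library, and edgeR 4.0.16 and DESeq2 1.42.0 on recovered reads. Deviations by passage correlated between lines with r of 0.235 to 0.504 over 6 pairs of lines, so libraries of the same passage varied together. Positions and exon lengths came from GENCODE M21 (GRCm38) and promoters from RefSeq. The genes, partner lists and markers were chosen with earlier results of these data known. The text names the 9 receptors, their ligands, co-receptors and relatives, up to 4 called genes per list and comparison with the largest change, and the 3 genes most correlated with a receptor. Some listed genes are counted with their lists and not reported here by name.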

Additional observations from a re-analysis of the deposited data

How the results depend on the processing

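Each line had 2 libraries, so a call can rest on 1 of them, leaving 1 out assumes that the other varies like the rest, and Alk and, outside MEF, Ntrk3 and Ntf3 held too few reads for firm fold changes. The 99 single-gene results had 2086 values under alternatives, of which 1989 kept direction and side of the threshold, 55 lost the call, 22 were called only there and 20 turned sign, 1 of those with an adjusted p under 0.05. Scaling to total reads and median-of-ratios size factors were chosen after seeing the data. The cause of the changes below was not tested. Among members, 4 were called in MEF against iPS and 7 with the adjusted p alone, 1 and 4 in pre-iPS against iPS, and 0 and 2 with passage. Leaving out 1 library gave 0 to 1 members for pre-iPS against iPS and 0 to 1 with passage. With the replicate block, 1 member was called for rNetrin-1-derived clones against control and 1 for clone 2 against control, where DESeq2 also called 1, and the block changed no other call among the results given. The passage comparison had the line as a block, so leaving out 1 library took its whole line out of that comparison. Without the block Igf2 lost its call (adjusted p = 0.534). Among partners, pre-iPS against iPS gave 19, 12 with a filter on a mean of 50 and 38 with the adjusted p alone, and rNetrin-1-derived against control gave 5, 3 with only the lines compared in the fit, and 2 to 5 without 1 library.

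Quantile normalization gave 0.58 for Alk in pre-iPS against iPS, -0.0669 for Met in MEF against iPS and 0.19 for Notch3 in pre-iPS against MEF. Total reads gave -0.356 for Met, 0.423 for Notch3 in pre-iPS against MEF, and -0.257 for Gdnf and -0.182 for Hhip in MEF against iPS. For Insr in pre-iPS against MEF, edgeR gave -0.00489, DESeq2 -0.00917 and median-of-ratios size factors -0.00742. Leaving out 1 library gave -0.188 to 0.353 for Ngfr, -1.68 to 0.00386 for Ret and -0.0672 to 0.182 for Kremen1 in pre-iPS against iPS, and -0.172 to 0.155 for Notch3 and -0.0159 to 0.0333 for Insr in pre-iPS against MEF.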
